A study of Mus musculus with 9 samples.

Results

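The E2F, retinoblastoma and Myc regulators are 10 genes that set when a cell copies its DNA and divides. They were taken by symbol (E2f1, E2f2, E2f3, E2f7, E2f8, Rb1, Rbl1, Tfdp1, Myc and Mybl2) from the transcript clusters of an Affymetrix mouse array that carry a single gene symbol, and all 10 were found among the 30050 genes so named. Rb1 alone among them had several such clusters (3), and the brightest on average was used for it. RNA came from cells labelled as HL-1, a line derived from mouse atrial heart muscle, on 9 arrays in 3 groups of 3. DOX_IFNg cells received 0.3 µM doxorubicin and 20 ng/ml interferon gamma. DOX cells received 0.3 µM doxorubicin alone, an anthracycline drug that breaks DNA through topoisomerase II. Con cells received phosphate-buffered saline. All groups were the same line, and no group received interferon gamma alone. How long the cells were treated is not stated in the labels used here. The labels do not say whether replicates came from separate dishes. The p-values therefore describe the spread between arrays, which may be technical.

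E2F proteins bind DNA together with a DP partner such as Tfdp1 and switch on genes of DNA synthesis. Retinoblastoma protein (Rb1) and its relative p107 (Rbl1) are pocket proteins that bind E2Fs and hold these genes down until cyclin-dependent kinases phosphorylate them. E2f1, E2f2 and E2f3 are known as activators, whereas E2f7 and E2f8 are atypical members that repress without a DP partner. Mybl2 (B-Myb) carries the programme on towards mitosis, and Myc is a growth factor-induced regulator of biosynthesis and cell cycle entry. Adult heart muscle cells largely leave this cycle, while HL-1 cells divide in culture.

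Several of these regulators are themselves known E2F targets, so the promoter windows of the 4 members with E2F letters before their start are shown. RefSeq windows of assembly GRCm38.p6, from 250 bases before to 50 after a gene's start, were held for 8 of the 10 genes (11 windows), with Rb1 and Myc not among them. The letters searched were TTTCCCGC, TTTCGCGC, TTTGCCGC and TTTGGCGC on either strand. Only the 250 bases before the start are printed, 5′ to 3′ on the gene's strand, and the capitals mark the matched letters.
Rbl1 promoter, chr2:157204535-157204784, minus strand: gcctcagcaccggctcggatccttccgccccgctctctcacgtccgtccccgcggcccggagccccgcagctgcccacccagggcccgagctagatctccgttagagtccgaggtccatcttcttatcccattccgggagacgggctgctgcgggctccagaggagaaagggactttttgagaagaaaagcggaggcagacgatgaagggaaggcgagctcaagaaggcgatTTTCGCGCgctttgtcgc
Tfdp1 promoter, chr8:13338501-13338750, plus strand: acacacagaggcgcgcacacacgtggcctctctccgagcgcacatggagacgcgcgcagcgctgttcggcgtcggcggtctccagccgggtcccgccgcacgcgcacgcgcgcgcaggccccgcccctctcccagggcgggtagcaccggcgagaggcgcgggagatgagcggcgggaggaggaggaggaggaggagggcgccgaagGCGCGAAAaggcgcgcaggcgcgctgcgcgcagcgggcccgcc
E2f7 promoter, chr10:110745189-110745438, plus strand: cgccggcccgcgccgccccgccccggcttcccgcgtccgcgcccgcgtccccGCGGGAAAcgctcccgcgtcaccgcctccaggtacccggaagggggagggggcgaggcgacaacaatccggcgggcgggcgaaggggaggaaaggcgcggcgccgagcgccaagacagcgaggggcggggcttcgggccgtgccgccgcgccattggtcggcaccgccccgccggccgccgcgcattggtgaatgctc
E2f3 promoter, chr13:29986064-29986313, minus strand: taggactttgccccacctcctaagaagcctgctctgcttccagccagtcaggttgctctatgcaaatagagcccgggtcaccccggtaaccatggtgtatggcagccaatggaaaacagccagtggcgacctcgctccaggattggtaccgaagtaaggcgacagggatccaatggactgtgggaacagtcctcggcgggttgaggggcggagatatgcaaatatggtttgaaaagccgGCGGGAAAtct

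The match began at position -18 from the start in Rbl1, at -43 in Tfdp1, at -198 in E2f7 and at -11 in E2f3. Tfdp1 had a second, overlapping window that held the same match at position -96. E2f2 had a match after its start, at position 40, which is not printed. In all, 5 of the 8 genes with a window held E2F letters, against 2.60% of the 27025 genes of the table. The G1/S list described further on held them in 9 of 20 genes with a window. The letters TTTGAA on either strand, the cell cycle homology region (CHR) read by the MuvB complex that Mybl2 joins, occurred in the windows of E2f2, E2f3 and E2f8, or 3 of 8 genes, against 20.2% of genes in the table. The E-box CACGTG, read by Myc with Max, occurred in those of Tfdp1 and E2f3, against 8.09% of genes. Among protein-coding genes on the array with a window, the shares were 3.32% for E2F letters, 17.7% for CHR letters and 9.23% for the E-box. The CHR letters of E2f2 and the E-box of E2f3 lay in a different window of the gene from its E2F letters. For E2f2 that window starts at chr4:136180532, while the other starts at chr4:136172024 on the plus strand. Its first bases read as protein code of E2f2, so this window lies inside the gene. The CHR count of 3 of 8 genes includes it. Windows follow RefSeq starts, and whether the cells used each start as a promoter was not tested. The windows of E2f1 and Mybl2 held none of these letters, which says only that the letters are not in these bases. Bases of the E2f1 window read as protein code of that gene. The promoter of E2f1 was therefore not searched, although E2f1 is counted among the 8 genes.

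Array medians lay between 4.08 and 4.17 on the log2 scale, and the number of arrays limits the precision. A background limit was set at log2 4.75, the 95th percentile of the means of 1225 olfactory receptor genes. Of 10 cardiac muscle markers, 3 lay above it, namely Tnnt2, Nkx2-5 and Actn2. Nkx2-5 averaged 5.12 in DOX_IFNg, 5.20 in DOX and 5.39 in Con, and Actn2 averaged 4.82, 4.75 and 4.74. Myh6, Myl7 and Nppa, which atrial heart muscle expresses, were under the limit in every group. The values of these atrial genes go against the labelled cell type. The mean log2 level over the cardiac list lay between 4.53 and 4.595 on DOX_IFNg arrays, between 4.55 and 4.59 on DOX arrays and between 4.65 and 4.67 on Con arrays. Its brightest gene, the troponin Tnnt2, averaged 6.52 in DOX_IFNg, 6.70 in DOX and 7.94 in Con. Of 7 skeletal muscle markers 3 lay above the limit, of 7 fibroblast markers 4, of 7 immune markers 1 and of 6 endothelial markers 0. The mean log2 level over the skeletal list lay between 4.86 and 4.95 on DOX_IFNg arrays, between 4.93 and 5.08 on DOX arrays and between 5.45 and 5.55 on Con arrays. Over the fibroblast list it lay between 8.11 and 8.17 in DOX_IFNg, between 8.10 and 8.11 in DOX and between 8.62 and 8.83 in Con. Members of these lists differed in direction. Myog, a skeletal muscle regulator, averaged 4.61 in DOX_IFNg, 4.76 in DOX and 8.18 in Con, and Acta1 averaged 7.48 in DOX_IFNg, 7.71 in DOX and 8.41 in Con. Myod1 averaged 6.33 in DOX_IFNg, 6.78 in DOX and 6.03 in Con. The collagen Col1a1 averaged 16.6 in DOX_IFNg, 16.7 in DOX and 17.8 in Con, whereas Postn, another fibroblast marker, averaged 7.33 in DOX_IFNg, 7.21 in DOX and 6.79 in Con. The part of these markers in the results below was not tested. A set of 6 arrays (Con replicate 1, all DOX arrays and DOX_IFNg replicates 1 and 2) shared the table's highest value of 19.9 and had 82 to 186 exactly identical values between any pair, against 1 to 17 for all other pairs. Results with this set as a covariate and within it are given below.

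In cells given doxorubicin, the brightest of 3 Rb1 clusters was 2.72-fold higher than in Con, while 7 of the 10 regulators were called lower. A second Rb1 cluster above background differed by -0.07 on the log2 scale, and the mean of the 3 by 0.70. In DOX minus Con, 9 of the 10 genes were called by limma at an adjusted p under 0.05, with 2 higher and 7 lower, where 15.6% of all genes were called (8.06% higher and 7.53% lower). The 2 that rose were Rb1 and Myc, and the 7 that fell were E2f2, E2f3, E2f7, E2f8, Rbl1, Tfdp1 and Mybl2. DOX and Con arrays were fully apart for all 10 genes, as for 32.9% of all genes. In DOX_IFNg minus Con, which uses the same Con arrays, 8 were called, with Rb1 higher and 7 lower, where 17.4% of all genes were called (8.01% higher and 9.41% lower), and the arrays of all 10 genes were again apart, as for 33.0% of all genes. Of the 10 genes, 8 had a mean over all arrays above the background limit. A fit of only the 11691 genes above that limit called 40.1% of them in DOX minus Con and 44.6% in DOX_IFNg minus Con. Among protein-coding genes the shares were 23.1% and 24%. The median log2 difference of the 10 genes was -0.32 in DOX minus Con and -0.31 in DOX_IFNg minus Con, beside -0.01 and -0.02 for all genes. In bulk RNA, fewer dividing cells and less RNA per cell cannot be told apart.

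**Figure D1:**
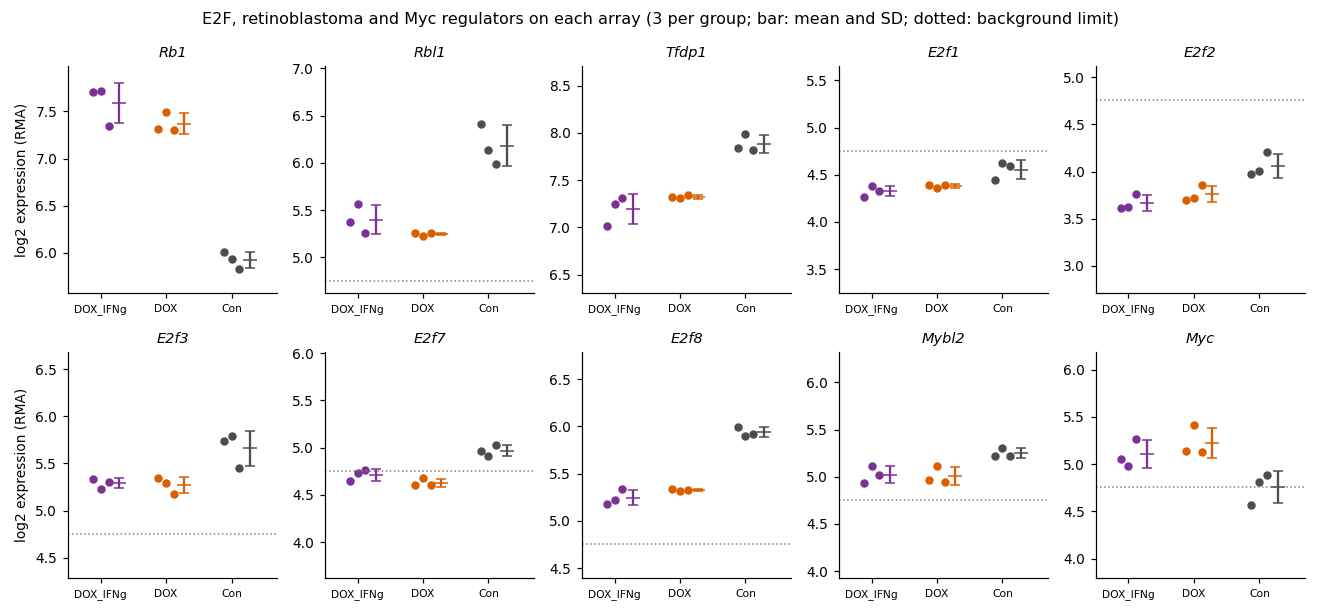
Log2 expression (RMA, vertical axes, all with the same span) of the 10 regulators on each array of the DOX_IFNg, DOX and Con groups, with the mean and SD of the 3 arrays beside the points and the background limit of 4.75 as a dotted line where it falls in range. Rb1 and Myc lie higher on the 6 treated arrays than on the Con arrays, and the other 8 genes lie lower.

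By its brightest cluster, Rb1 had the largest difference from Con of the 10 genes, but with the mean of its 3 clusters it lay behind Rbl1 in DOX minus Con and behind Rbl1, E2f8 and Tfdp1 in DOX_IFNg minus Con. Its highest-mean cluster (TC1400002383.mm.1) lay at log2 7.70, 7.72 and 7.34 on DOX_IFNg replicates 1 to 3, at 7.31, 7.50 and 7.30 on the DOX arrays and at 6.01, 5.94 and 5.83 on the Con arrays. Every treated array was above every Con array, and the lowest DOX_IFNg array lay within the DOX range. This cluster rose by 1.44 on the log2 scale in DOX (SE 0.11, 3 arrays per group, limma adjusted p = 6.34e-05). In DOX_IFNg it rose by 1.66 over Con (SE 0.11, limma adjusted p = 3.26e-05), or 3.16-fold.

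The other clusters annotated as Rb1 did not follow this pattern. TC1400002387.mm.1 lay at 6.97, 6.32 and 6.23 in DOX_IFNg, at 6.35, 6.23 and 6.17 in DOX and at 6.65, 6.13 and 6.18 in Con. Its groups overlapped, and DOX minus Con was -0.07 (SE 0.20, limma adjusted p = 0.879). TC1400002382.mm.1 lay under the background limit on every array, at 3.94, 3.31 and 3.37 in DOX_IFNg, at 4.25, 4.27 and 4.10 in DOX and at 3.20, 3.44 and 3.82 in Con. It was higher in DOX than in Con by 0.72 (SE 0.19, limma adjusted p = 0.0377) and differed by 0.05 in DOX_IFNg minus Con (adjusted p = 0.905). With the mean of the 3 clusters in place of the brightest, Rb1 differed by 0.70 in DOX minus Con (adjusted p = 0.00648) and by 0.63 in DOX_IFNg minus Con (adjusted p = 0.00972). The part of the gene that each cluster covers was not analysed here.

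**Figure D2:**
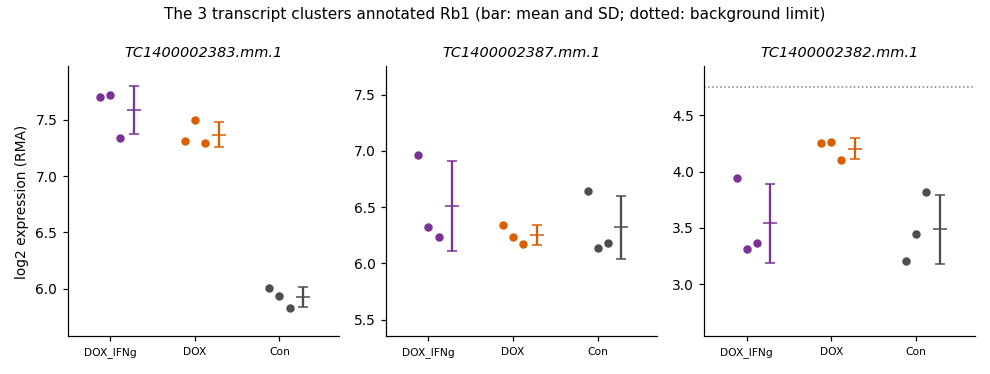
Log2 expression (RMA, vertical axes, same span) on each array for the 3 transcript clusters annotated as Rb1, by group, with mean and SD beside the points and the background limit of 4.75 dotted where in range. Treated and Con arrays are apart in the first cluster, overlap in the second, and lie under the limit throughout in the third.

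Rbl1, the pocket protein p107 and a known E2F target, had the largest fall. Its cluster lay at log2 5.37, 5.56 and 5.26 in DOX_IFNg, at 5.25, 5.23 and 5.25 in DOX and at 6.41, 6.14 and 5.99 in Con. The treated arrays were all below the Con arrays, and the DOX arrays spanned less than the arrays of either other group. Rbl1 fell by 0.94 in DOX (SE 0.11, limma adjusted p = 0.000739), which put Con 1.91-fold above DOX, and differed by -0.78 in DOX_IFNg minus Con (SE 0.11, adjusted p = 0.00176). The third pocket protein gene, Rbl2 (p130), known for quiescent cells, is not among the 10 and was 0.32 higher in DOX than in Con (SE 0.08, limma adjusted p = 0.0239). Leaving out Con replicate 2 or 3 or DOX replicate 1 or 2 ended that call of Rbl2, as did both fits that took the array set into account (highest adjusted p = 0.256).

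Tfdp1 encodes DP1, the partner through which E2f1 to E2f6 bind DNA. It lay at log2 7.02, 7.25 and 7.32 in DOX_IFNg, at 7.32, 7.31 and 7.34 in DOX and at 7.85, 7.99 and 7.81 in Con. All treated arrays were below all Con arrays. Tfdp1 fell by 0.56 in DOX (SE 0.08, limma adjusted p = 0.00214) and differed by -0.69 in DOX_IFNg minus Con (SE 0.08, adjusted p = 0.000689). Tfdp2, the gene of the second DP partner, fell by 0.33 in DOX (SE 0.05, adjusted p = 0.00248), but was not called within the array set (adjusted p = 0.0962).

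Among the activator E2Fs, E2f3 was the only one above the background limit. E2f3 averaged log2 5.29 ± 0.05 in DOX_IFNg, 5.27 ± 0.09 in DOX and 5.66 ± 0.18 in Con (SD, n = 3 each). Its widest group was Con, where replicate 3 at 5.45 lay nearest to the treated arrays, whose highest value was 5.34. E2f3 fell by 0.39 in DOX (SE 0.09, limma adjusted p = 0.0222) and differed by -0.37 in DOX_IFNg minus Con (SE 0.09, adjusted p = 0.0257). Leaving out Con replicate 1 or 2 or DOX replicate 2 or 3 ended the call in DOX minus Con (highest adjusted p = 0.0767). Leaving out Con replicate 1 or 2 or any of the DOX_IFNg arrays ended that in DOX_IFNg minus Con (highest adjusted p = 0.0879).

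E2f1 and E2f2 lay under the limit in every group, where RMA compresses differences, so their changes can be understated. E2f2 averaged 3.67 ± 0.08 in DOX_IFNg, 3.76 ± 0.08 in DOX and 4.06 ± 0.13 in Con. It differed by -0.30 in DOX minus Con (SE 0.08, limma adjusted p = 0.0356) and by -0.39 in DOX_IFNg minus Con (SE 0.08, adjusted p = 0.0104). Leaving out Con replicate 2 or 3, DOX replicate 1 or 2, or DOX_IFNg replicate 2 ended the first of these calls (highest adjusted p = 0.124). E2f1, the founding activator and itself a known E2F target, averaged 4.33 ± 0.06 in DOX_IFNg, 4.38 ± 0.02 in DOX and 4.55 ± 0.10 in Con. Its DOX arrays, between 4.36 and 4.40, came close to the lowest Con array at 4.44. E2f1 differed by -0.17 in DOX minus Con (SE 0.06), which did not pass (limma adjusted p = 0.105), although it did without Con replicate 1 (-0.23, adjusted p = 0.0355). In DOX_IFNg minus Con it fell by 0.23 (SE 0.06, adjusted p = 0.0357), and leaving out any array except Con replicate 1 ended that call (highest adjusted p = 0.117).

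The repressor E2Fs fell in both comparisons with Con. E2f8 lay at log2 5.18, 5.22 and 5.33 in DOX_IFNg, at 5.33, 5.31 and 5.33 in DOX and at 5.998, 5.90 and 5.92 in Con. The gap between treated and Con arrays was wider than the spread within any group. E2f8 fell by 0.62 in DOX (SE 0.05, limma adjusted p = 0.000145), with Con 1.53-fold above DOX, and differed by -0.70 in DOX_IFNg minus Con (SE 0.05, adjusted p = 7.16e-05). E2f7 averaged 4.71 ± 0.06 in DOX_IFNg, 4.63 ± 0.04 in DOX and 4.97 ± 0.06 in Con, so that its treated means lay under the background limit and the falls can be understated. It fell by 0.34 in DOX (SE 0.05, adjusted p = 0.00341) and differed by -0.25 in DOX_IFNg minus Con (SE 0.05, adjusted p = 0.0132). Both calls of E2f7 held without any single array, but not within the array set (adjusted p = 0.0657 and 0.129).

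Mybl2 showed the smallest called difference of the 10 genes in DOX minus Con. It averaged log2 5.02 ± 0.09 in DOX_IFNg, 5.01 ± 0.09 in DOX and 5.25 ± 0.05 in Con. The highest treated array, at 5.12, lay close to the lowest Con array, at 5.22. Mybl2 fell by 0.24 in DOX (SE 0.07, limma adjusted p = 0.0466) and differed by -0.23 in DOX_IFNg minus Con (SE 0.07, adjusted p = 0.0543). Leaving out any Con array, DOX replicate 1 or 3, or DOX_IFNg replicate 3 ended the call in DOX minus Con (highest adjusted p = 0.149). The difference in DOX_IFNg minus Con was called without DOX replicate 2 (adjusted p = 0.0459). Its relative Mybl1 (A-Myb), known from germ cells, rose by 1.36 in DOX (SE 0.26, adjusted p = 0.00854), but was not called within the array set (adjusted p = 0.0550).

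Myc was the only other of the 10 genes to rise in DOX. It lay at log2 5.05, 4.98 and 5.27 in DOX_IFNg, at 5.14, 5.41 and 5.12 in DOX and at 4.57, 4.81 and 4.89 in Con, whose mean of 4.75 was at the background limit. All treated arrays were above all Con arrays, with the lowest DOX_IFNg array next to the highest Con array. Myc rose by 0.47 in DOX (SE 0.12, limma adjusted p = 0.0274) and lay 0.35 higher in DOX_IFNg than in Con (SE 0.12), which did not pass (adjusted p = 0.0808). Leaving out Con replicate 1 or 2 or DOX replicate 1 or 2 ended the call in DOX minus Con (highest adjusted p = 0.0892). Mycn, its close relative, fell by 0.90 in DOX (SE 0.07, adjusted p = 0.000102), and this call held without any single array.

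Interferon gamma given on top of doxorubicin changed none of the 10 genes beyond the test's threshold. In DOX_IFNg minus DOX limma called 0 of them and 0.00% of all genes, and 0 of the 10 lay at an unadjusted p under 0.05, as 1503 of the 30050 genes did. The largest difference was that of the brightest Rb1 cluster, at 0.22 with a 95% interval from -0.03 to 0.47 (adjusted p = 0.976). Rbl1 was the only gene whose arrays did not overlap, at 0.15 higher with an interval from -0.11 to 0.41 (adjusted p = 0.978), where 11.2% of all genes did not overlap. For E2f3 the interval ran from -0.19 to 0.23, for Tfdp1 from -0.32 to 0.06 and for Myc from -0.39 to 0.15. These intervals bound the differences and do not show that the groups were alike.

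**Figure D3:**
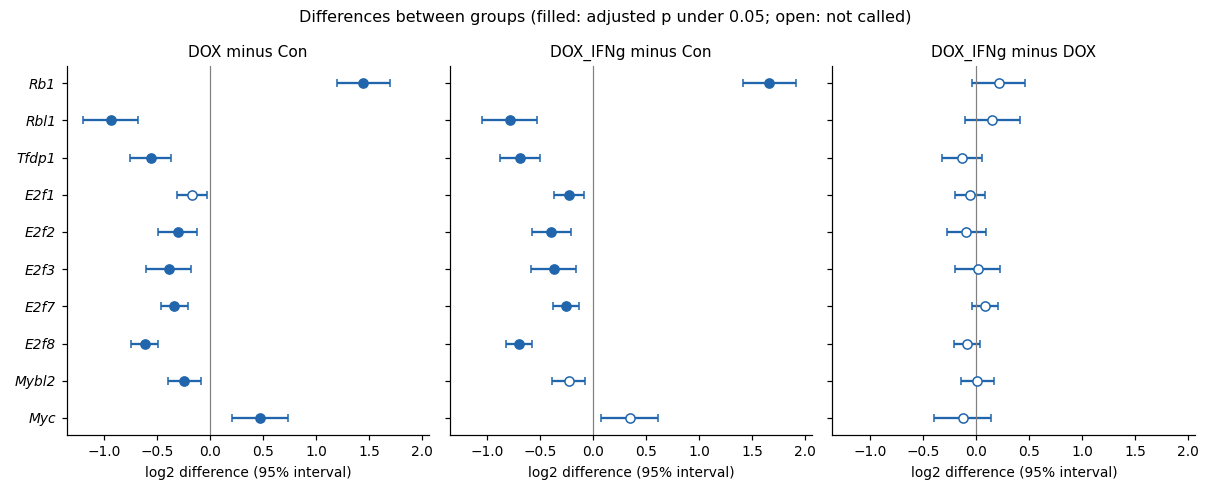
Log2 differences (horizontal axis) with 95% limma intervals for the 10 regulators in DOX minus Con, DOX_IFNg minus Con and DOX_IFNg minus DOX, filled where called at an adjusted p under 0.05. Rb1, by its brightest cluster, stands highest at 1.44 and 1.66 in the comparisons with Con, Rbl1 lowest at -0.94 and -0.78, and no symbol is filled in DOX_IFNg minus DOX.

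With the array set as a covariate, 6 of the 10 genes were called in DOX minus Con (E2f7, E2f8, Rb1, Rbl1, Tfdp1 and Myc) and 8 in DOX_IFNg minus Con, with Myc in place of E2f1, where 12.2% and 15.9% of all genes were called. Within the set, which holds 1 Con array assumed to vary like the other groups, 6 were called in DOX minus Con (E2f3, E2f8, Rb1, Rbl1, Tfdp1 and Myc) and 4 in DOX_IFNg minus Con (E2f8, Rb1, Rbl1 and Tfdp1), where 8.18% and 7.43% of all genes were called. The difference of the brightest Rb1 cluster in DOX minus Con was 1.28 with the covariate and 1.36 within the set. E2f8, Rb1, Rbl1 and Tfdp1 were called in DOX minus Con and in DOX_IFNg minus Con under each of the 18 alternative settings run. For Rb1 these settings used its brightest cluster, or the mean of its clusters, so its calls depend on that choice. The other Rb1 cluster above background, TC1400002387.mm.1, was not called in DOX minus Con (-0.07, limma adjusted p = 0.879). Nor was it called in DOX_IFNg minus Con (0.19, limma adjusted p = 0.622).

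Related genes were read from lists, each beside the 15.6% of all genes called in DOX minus Con and a median difference over all genes of -0.01. Most listed genes lay above the background limit, and a fit of only such genes called 40.1% of them. Of 20 measured relatives in the E2F, pocket protein, Myb, MuvB and Myc families, 6 rose, 6 fell and 8 did not pass, with a median of -0.04. E2f5 (-0.78) and E2f6 (-0.37), E2Fs of the repressor kind, fell, as did Rbbp4 (-0.75) and Lin9 (-0.45) of the MuvB complex, while Lin37, another of its subunits, rose (0.99). Of 6 measured genes of the Max network that oppose Myc, 3 rose, Mxd4 (0.66), Mxd1 (0.60) and Mxi1 (0.29), and Mnt (0.08), Mxd3 (-0.13) and Mga (-0.01) did not pass. The calls of Mxd1 (adjusted p up to 0.116) and Mxi1 (adjusted p up to 0.158) were lost in both array set fits and without Con replicate 1. Mxd1 also lost its call when Con replicate 3 was left out, and Mxi1 when Con replicate 2 or DOX replicate 2 or 3 was. E2f4, the E2F known to sit with pocket proteins in resting cells, differed by -0.01 (SE 0.08, limma adjusted p = 0.962). Within the array set 7 of the relatives were called in DOX minus Con.

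Most genes known as E2F and B-Myb targets fell in DOX. Of 22 measured G1/S genes known as E2F targets, 20 fell, 1 rose and 1 did not pass, with a median log2 difference of -1.07. The helicase subunits Mcm6 (-2.63), Mcm5 (-2.27) and Mcm2 (-2.24) and the ribonucleotide reductase subunit Rrm1 (-2.62) fell most. Tyms, thymidylate synthase, rose by 0.61 (SE 0.12, limma adjusted p = 0.0106), a call lost in both array set fits (adjusted p up to 0.0980). Of 19 G2/M genes known to be bound by B-Myb, MuvB and Foxm1, 15 fell and 4 did not pass, with a median of -0.66. Plk1, a mitotic kinase (-2.79), Kif20a, a kinesin of cytokinesis (-1.51), Bub1, a spindle checkpoint kinase (-1.24), and Kif11, a spindle kinesin (-1.14), fell most.

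Genes known as Myc targets were called in both directions. Of 19 measured, 9 fell, 4 rose and 6 did not pass, with a median of -0.30. Cad, an enzyme of pyrimidine synthesis (-1.15), Hspd1, a mitochondrial chaperone (-0.83), Tfrc, the transferrin receptor (-0.70), and Fbl, a nucleolar methyltransferase (-0.65), fell most. Shmt2, a mitochondrial serine enzyme (1.21), the cyclin Ccnd2 (1.18), Odc1, the first enzyme of polyamine synthesis (0.79), and Rrp9 (0.23) rose. The call of Rrp9 was lost under 10 of the 18 alternatives (adjusted p up to 0.172), among them those that left out Con replicate 1 or 2, DOX replicate 1 or 2, or DOX_IFNg replicate 2. Within the array set 8 of the 19 were called.

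Of 16 measured genes listed as cyclins, kinases and inhibitors that set retinoblastoma phosphorylation, 9 fell, 1 rose and 6 did not pass, with a median of -0.27. The list, named so below, also holds Skp2 (-0.56) and Fzr1 (-0.25), which are not cyclins, kinases or their inhibitors. Both are counted among those that fell, here and in DOX_IFNg minus Con. Ccne1 (-2.20), the cyclin E1 gene and an E2F target, and its kinase Cdk2 (-1.45) fell most. Next came Cdkn2c (-1.33), an inhibitor of Cdk4 and Cdk6 and also a known E2F target, and Ccnd3, a cyclin D gene (-0.96). The gene that rose was Ccnd2, another cyclin D gene (1.18). The list shares Ccne1 and Ccne2 with the G1/S list and Ccnd2 and Cdk4 with the Myc list. In DOX_IFNg minus Con the counts were 20 lower and 1 higher of the 22 G1/S genes, 15 and 1 of the 19 G2/M genes, 10 and 3 of the 19 Myc targets, 9 and 2 of the 16 cyclins, kinases and inhibitors, and 5 and 5 of the 20 relatives. Over all genes 17.4% were called in that comparison (9.41% lower and 8.01% higher), and 44.6% in a fit of only genes above the background limit. Of the cyclins, kinases and inhibitors, Ccnd2 (1.07) and the inhibitor Cdkn1a (0.50) were those called higher there. In DOX_IFNg minus DOX limma called 0 in each of the 5 lists, with 2 Myc targets, 1 relative and 0 genes of the other lists at an unadjusted p under 0.05.

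**Figure D4:**
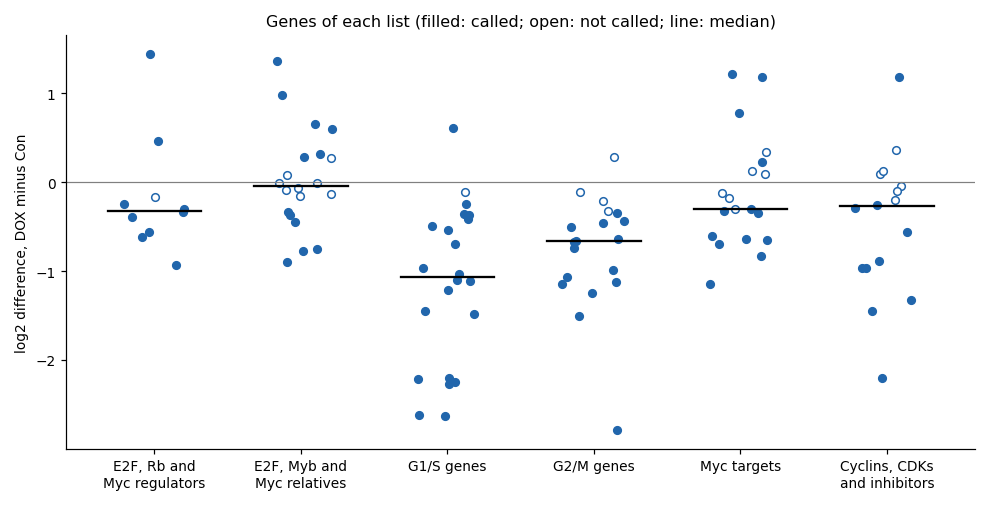
Log2 difference in DOX minus Con (vertical axis) of each gene in the 10 regulators and the 5 lists, filled where called at an adjusted p under 0.05, with a line at each list's median. The G1/S and G2/M genes lie mostly below 0, with medians of -1.07 and -0.66, and the 10 regulators have a median of -0.32 with Rb1 and Myc above 0.

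Likeness of pattern was measured as the root mean square difference between 2 genes' values on the 9 arrays, each centred on its own mean, over protein-coding genes. Nearest to Rb1 was Wwp1, a ubiquitin ligase (0.098 on the log2 scale), and nearest to Rbl1 was Kif15, a mitotic kinesin (0.070). Nearest to E2f8 was Eif4a1, a translation initiation helicase (0.028), to Tfdp1 Srpk1, a splicing factor kinase (0.056), and to Myc Prkar1a, a regulatory subunit of protein kinase A (0.051). For E2f2 it was Mrps25 (0.048), for E2f3 Pcyt1b (0.041), for E2f7 Bcs1l (0.036) and for Mybl2 Mgll (0.044). Among the 10 genes themselves, E2f1 and Mybl2 (0.074) and E2f7 and Mybl2 (0.074) lay closest, followed by E2f8 and Tfdp1 (0.081). The values were not scaled, so the distance reflects the size of change as well as its pattern, and genes that change little lie close. All genes were measured on the same 9 arrays and groups, and the distances were not tested.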

How the data were processed

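RNA of 9 arrays was measured, 3 per group, with groups and replicate numbers from the labels. The authors deposited a single table with a log2 value for each transcript cluster and array. Per the submitters' processing notes it was made with RMA (background correction, normalization and probe summary), whose version is not given in the sources used here. That the scale is log2 was read from its range, 2.29 to 19.9. RMA compresses differences between dim probes. Of 65527 clusters, 30376 carried 1 gene symbol and 2117 several, and 33034 were not listed. Group means of 30050 genes were fitted on all 9 arrays with limma 3.58.1 (lmFit, eBayes) in R 4.3.3, with two-sided tests, Benjamini-Hochberg adjustment over all genes and calls at an adjusted p under 0.05. The median gene had a 95% interval of ±0.19. The fit was also run on simulated independent normal values without an array set, so that run does not bear on the set. Named genes were the 10 regulators, every called relative, up to 4 called genes per direction of each other list, and nearest patterns; other genes named were chosen after their values were seen. The regulators and lists were chosen with earlier results of these data known. After each gene's group mean was subtracted, same-numbered arrays of different groups correlated between -0.16 and 0.36. Different-numbered arrays correlated between -0.40 and 0.28. These ranges overlap, so the numbers were not taken as pairs. Alternatives were quantile normalization, leaving out dim genes, fitting 2 groups, a replicate block, the array set, averaged clusters, protein-coding genes, a trended robust prior and leaving out each array.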

Additional observations from a re-analysis of the deposited data

How the results depend on the processing

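The count of the 10 regulators called was 9 in DOX minus Con, and 5 to 9 with any single array left out, the lowest without Con replicate 2. In DOX_IFNg minus Con it was 8, and 6 to 8 with any single array left out. Within the array set it was 4 in DOX_IFNg minus Con, where fewer arrays were fitted. With the replicate block it was 9 in DOX minus Con and 9 in DOX_IFNg minus Con, where Mybl2 was then called (adjusted p = 0.0252), and 0 in DOX_IFNg minus DOX. Fitting only the groups compared gave 6 in DOX minus Con (E2f2, E2f3 and Mybl2 lost) and 6 in DOX_IFNg minus Con (E2f1 and E2f3 lost). Over all genes the number called was 4687 in DOX minus Con and 5234 in DOX_IFNg minus Con, against 2457 and 2234 within the array set. In DOX_IFNg minus DOX 0 of the 10 were called under any alternative run. None of the differences from Con changed sign under these alternatives. In DOX_IFNg minus DOX, where none was called, that of Rb1 turned to -0.063 with averaged clusters. With single arrays left out, that of E2f3 ran from -0.030 to 0.054 and that of Mybl2 from -0.032 to 0.069, turning sign for E2f3 without DOX replicate 3 or DOX_IFNg replicate 1 and for Mybl2 without DOX replicate 1, DOX replicate 3 or DOX_IFNg replicate 2. The cause of these changes was not tested. Of the lists, the calls in DOX minus Con changed by more than 1.5 times within the array set for the relatives (7, against 12) and the Myc targets (8, against 13). The list counts were run under the alternatives after the data were seen. Signal near the background limits E2f1, E2f2, E2f7 and Myc.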
